A study of Mus musculus with 8 samples.

Results

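The nuclei described here are Schwann-like nuclei of the adult mouse heart, 189 of 37767 nuclei that passed quality filters (0.50%, exact Clopper-Pearson 95% interval 0.432% to 0.577%). A nucleus had to show 200 or more genes, with mitochondrial genes giving under 5% of its UMIs (unique molecular identifiers, each a counted transcript). Ttn, Ryr2 and Trdn, genes of cardiac muscle, together had to be under 2% of its UMIs. It also had to lack any UMI of Cdh5 (endothelial), Csf1r (macrophage) and Rgs5 (pericyte), and these conditions, called the gate below, left 17809 nuclei. A member then had at least 3 of 8 genes detected, namely Cdh19, Csmd1, Cadm2, Ptprz1, Kcna1, Adam23, Slc35f1 and Chl1, with Cdh19, Ptprz1 or Kcna1 among them. The members held 513433 UMIs in all, with a median of 2327 per nucleus, and the other 17620 nuclei of the gate served as the comparator.

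Schwann cells are the glia of peripheral nerves. Myelinating Schwann cells wrap single large axons, and non-myelinating ones, among them Remak cells, hold bundles of thin axons such as those of the autonomic nerves that run through the heart. Their lineage depends on the transcription factor Sox10 and on neuregulin from axons, which acts on the receptor ErbB3, and they lie on a basal lamina of laminin and collagen.

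Nuclear RNA of adult hearts was counted in droplets (10x Genomics) from female and male mice. Animals were labelled nTg (WT, without a transgene) or Tg (Tg-ccna2), the latter expressing cyclin A2, a regulator of the cell cycle, constitutively per the submitters. The labels name no promoter, strain, age in numbers or number of animals per library. Of 8 labelled libraries, 5 had a matrix that fitted its own barcode list, namely nTg female 1, both labelled Tg female (1, then 2) and both labelled Tg male (1, then 2). Values are given in this order unless other libraries are named. The matrices of nTg female 2, nTg male 1 and nTg male 2 repeated those of Tg female 2, Tg male 1 and Tg male 2 and were not used. The 5 libraries held 25045167 to 38593706 UMIs in 8062 to 10642 barcodes. Nothing in the labels says that the libraries came from separate animals, so the p-values below concern only these libraries and not a spread between animals.

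Ccna2 went against 2 labels. In nuclei with at least 2% muscle UMIs it stood at 449, 0.448, 801, 219 and 145 CPM (counts per 1000000 UMIs), high in the library labelled nTg female 1 and near 0 in the library labelled Tg female 1. Libraries are therefore called by label, and no direction is drawn for the genotype. In the Schwann-like nuclei Ccna2 had 0, 0, 31, 1 and 0 UMIs. Of the 31 in the library labelled Tg female 2, 30 lay in 1 nucleus. The 0 counts allow up to 44.2, 29.4 and 35.2 CPM (3 counts) in nTg female 1, Tg female 1 and Tg male 2. At this depth a level in Schwann-like nuclei below these limits was not detectable.

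The rule genes were detected together in most members, which is how the members were chosen and is no result. All 8 were detected in 94 of 189 members, at least 6 in 167, and exactly 3 in 11. Csmd1, a large membrane protein with complement-control domains, stood at 17930, 16340, 7271, 13530 and 17480 CPM. Cdh19, a cadherin of glial precursors, stood at 6415, 7194, 3679, 6975 and 8242 CPM. Just outside the threshold were 161 nuclei with 2 rule genes including Cdh19, Ptprz1 or Kcna1, and 1 nucleus with 3 or more but none of these.

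Schwann cell genes that the rule did not use marked most members with 4 or more rule genes and few of those with 3. At least 1 UMI of Sox10, Erbb3, S100b or Gfra3 was found in 158 of 189 members (83.6%). In the other nuclei of the gate it was found in 378 of 17620 (2.15%), at a median depth of 2439 UMIs. By number of rule genes, it was found in 147 of 167 members with 6 or more, 10 of 11 members with 4 or 5, and 1 of 11 members with exactly 3. The 161 nuclei just outside had it in 4 (2.48%), so the 11 members at the threshold had shares nearer to non-members than to the other members. The name Schwann-like thus holds, by genes outside the rule, for the members with 4 or more rule genes, 178 of 189, as a group. It is not shown for each of them, since some had no such UMI and a few lay outside the cluster described below.

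**Figure D1:**
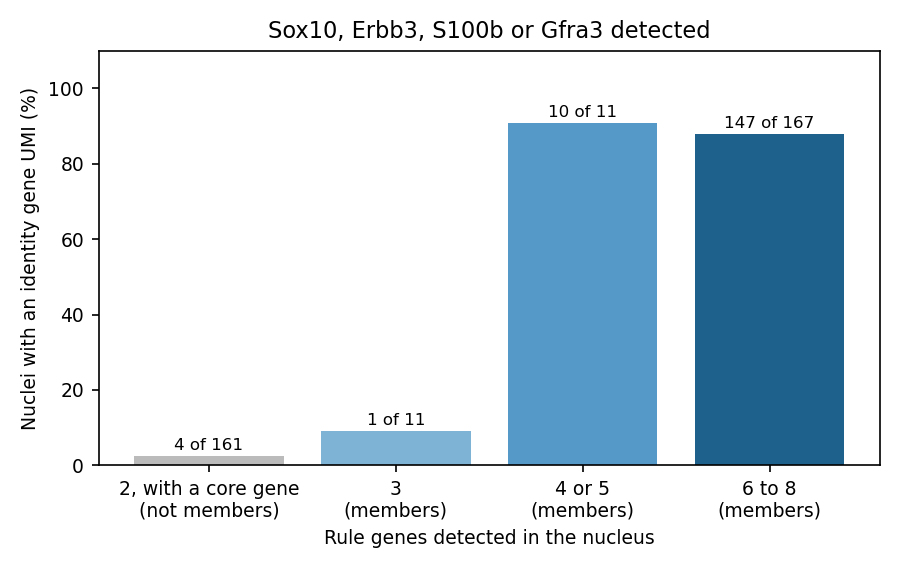
Share of nuclei (%, vertical axis) with at least 1 UMI of Sox10, Erbb3, S100b or Gfra3, by the number of rule genes detected (horizontal axis), with the counts above the bars. Members with 6 to 8 rule genes stand at 88.0%, while members with 3 stand at 9.09%, close to the 2.48% of non-members with 2.

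Clustering of all nuclei of the gate without the rule genes, the sex-linked genes and Ccna2 gave 23 clusters. One of them held 177 nuclei, all of them members (93.7% of the members) and none a non-member. It held 20, 45, 33, 52 and 27 nuclei of the 5 libraries, and its leading genes were Ank3, Nkain2, Stard13, Iqgap2, Frmd4a, Scn7a, Ncam1, Zfp536, Dlgap1 and Plce1. The clustering used genes of the same nuclei, so it is a description. The other 12 members lay in clusters of other kinds. They had a median of 4926.5 UMIs, 9 had exactly 3 rule genes, and 5 were called doublets (droplets with more than 1 nucleus). Among marker lists of other cell types, fibroblast markers had the most UMIs in 6 of these 12, cardiomyocyte markers in 3 (in 1 of them tied with mesothelial markers), and endothelial, lymphatic and mesothelial markers in 1 each. In 1 nucleus of the library labelled Tg male 1, with 11166 UMIs, all 8 rule genes and 33 fibroblast marker UMIs were found together.

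The leading genes of the members, apart from those of the rule, were potassium channels, membrane scaffolds and adhesion molecules. They are given as a description with no test, since the rule picked the nuclei by genes of the same cells. Ratios are log2 of member CPM over that of the other gate nuclei of the same library, with 10 CPM added to both, as mean ± SD over the 5 libraries. Of 10803 genes considered, 280 were at least 2-fold higher in every library (2.59%) and 270 at least 2-fold lower (2.5%), and the median log2 ratio over all of them was -0.245. A gene could lead only if it had at least 100 CPM in the members of every library, which 160 of the 2-fold higher genes had.

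The highest of these was Zfp536, a zinc finger gene (chromosome 7, 37472135 to 37773641, GRCm38), at 1032, 1674, 819.9, 1323 and 1198 CPM in members. The other gate nuclei had 5.22 to 7.27 CPM, and the log2 ratio was 6.20 ± 0.402 (SD, n = 5). Ank3, which encodes the scaffold ankyrin-G, stood at 3584, 4267, 1564, 3448 and 3416 CPM in members (log2 ratio 5.58 ± 0.731, n = 5). Iqgap2, a scaffold of the actin cytoskeleton, stood at 2492, 1546, 1154, 2603 and 3088 CPM (5.57 ± 0.516). For these 3 genes the lowest member value was above every value of the other gate nuclei, and in each the library labelled Tg female 2 was lowest among members.

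Several shaker-type potassium channels of axons and glia stood together. Kcna6 had 487, 763, 356, 538 and 587 CPM in members against at most 1.17 in the other gate nuclei (log2 ratio 5.66 ± 0.43). Kcna2 had 354, 871, 270, 374 and 599 CPM against at most 1.86 (5.40 ± 0.643). Kcna1, a gene of the rule, lies on chromosome 6 at 126640397 to 126646384, 61944 bases from Kcna6 at 126708329 to 126740674, both on the minus strand. The antisense gene Gm26673 overlaps Kcna6 by 21991 bases on the other strand and had the next ratio after Zfp536, 5.96 ± 0.256, with 634, 734, 593, 562 and 810.1 CPM. Whether the counting used strand is not given in the sources used here, so how far reads of Kcna6 and Gm26673 were told apart is not known. Kcnh8, a channel of the ether-a-go-go family, also led, with 259 to 487 CPM in members (log2 ratio 5.0 ± 0.372).

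Adhesion and receptor genes made up much of the rest. Ncam1, a neural cell adhesion molecule kept by non-myelinating Schwann cells, stood at 1401, 1654, 658, 1413 and 1785 CPM (log2 ratio 5.11 ± 0.534). Ncam2 stood at 270.0 to 519 CPM (5.12 ± 0.316), and Lrrc4c, a leucine-rich ligand of netrin-G, at 475 to 812 CPM (5.16 ± 0.174). Gfra3, the co-receptor for artemin, stood at 310, 489, 205, 368 and 223 CPM (4.93 ± 0.529). Further leading genes were Rasgef1c, Epb41l4b, Gm13187, Adam11, Cnksr2, Nkain2, Pex5l and Car10, with mean log2 ratios from 4.82 (Car10) to 5.49 (Rasgef1c).

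Genes that define the Schwann lineage were high in members of every library. Sox10 had 280.2, 352, 399, 181 and 176 CPM, against at most 0.393 in the other gate nuclei (log2 ratio 4.75 ± 0.536). Both libraries labelled male were lower in Sox10 than all 3 labelled female, but it did not pass the edgeR test of sex described below. Erbb3 had 236, 323, 183, 236 and 270.0 CPM (4.54 ± 0.323). L1cam, an adhesion molecule of unmyelinated axons and their glia, had 236, 440, 237, 242 and 153 CPM (4.33 ± 0.526). Of 15 identity genes listed, 10 were at least 2-fold higher in every library, with a median log2 ratio of 2.98 over the list. These also included Gfra3, S100b, Foxd3, Ncam1, Scn7a, Art3 and Gpr37l1. Of the remaining 5, Fabp7 had no UMI, Gfap and Sox2 had 3 UMIs each, and Ngfr and Egfl8 were at least 2-fold higher in 4 libraries each.

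Per nucleus, Sox10 was detected in 91 of 189 members (48.1%, interval 40.8% to 55.5%) and in 9 of 17620 other gate nuclei (0.0511%). Gfra3 was detected in 91 members (48.1%) and in 12 other gate nuclei (0.0681%). After each nucleus was thinned to 1000 UMIs, which left out 7 shallower members and 581 other nuclei, Sox10 was detected in 29.1% of members against 0.0235% of the others, and Gfra3 in 31.9% against 0.0293%. Muscle nuclei, which should lack Sox10, had a UMI of it in 0.154%, at a median depth of 7293 UMIs, and in 0.0141% once thinned. The intervals cover counting error only.

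**Figure D2:**
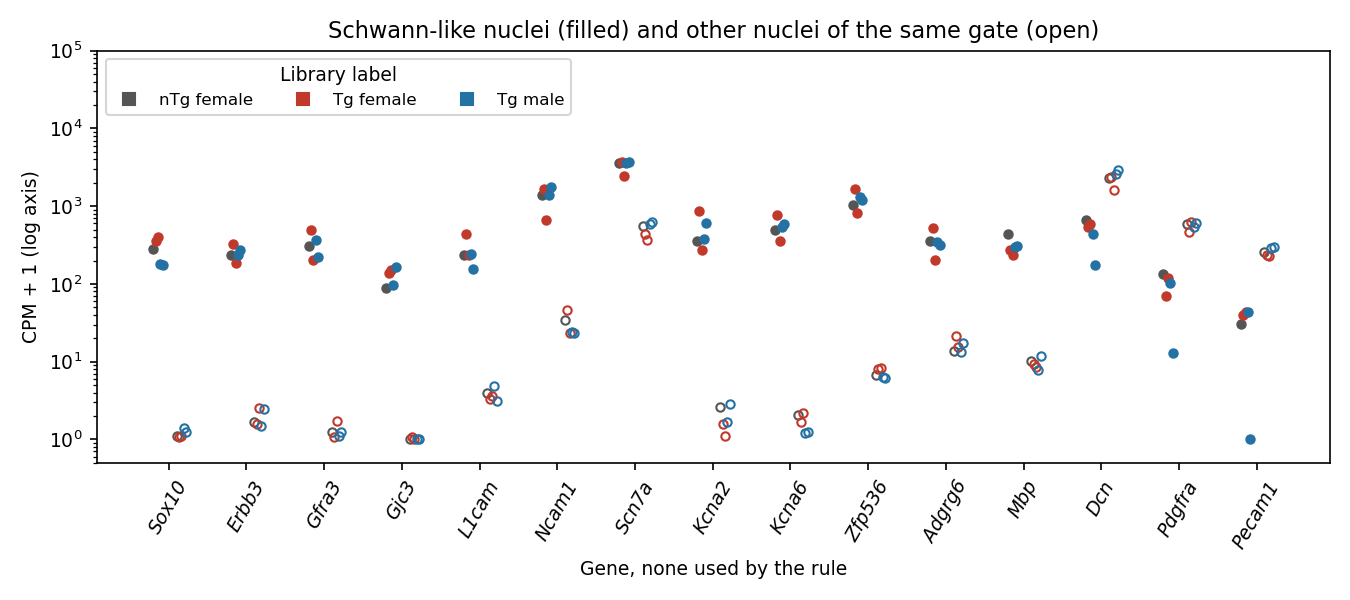
CPM + 1 (log axis) of 15 genes that the rule did not use, 1 point per library, in Schwann-like nuclei (filled) and in the other nuclei of the gate (open), coloured by label. Sox10, Erbb3, Gfra3, Gjc3, Kcna2 and Kcna6 stand far above the other nuclei in all 5 libraries, and Dcn, Pdgfra and Pecam1 stand below.

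Myelin genes were mostly low or absent. Of 16 listed, 3 were at least 2-fold higher in every library, namely Mbp, Mal and Gjc3, a larger share than the 2.59% of all genes considered. The list's median log2 ratio was 0.162. Mbp, which encodes myelin basic protein but also a longer transcript used outside myelin, had 442, 274, 237, 296 and 305 CPM (log2 ratio 4.09 ± 0.294). Gjc3, a connexin of Schwann cells, had 88.5, 137, 151, 96.6 and 164 CPM (3.74 ± 0.366). Pmp22, a protein of compact myelin, differed little from the other nuclei (log2 ratio 0.23 ± 0.411). Pllp, Cldn19, Egr2, Ugt8a and Gjb1 had no UMI in any member. Egr2 is the transcription factor that drives myelination. A UMI of Mag, Prx, Ncmap or Drp2 was found in 8 members, and of 2 of these genes in 1 member.

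Genes associated with non-myelinating Schwann cells were higher in 4 of 6, with a median log2 ratio of 2.89. These were L1cam, Ncam1, Scn7a and Cdh2. Scn7a, a sodium-sensing channel, had 3643, 3651, 2460, 3575 and 3663 CPM in members, but it was also present in the other gate nuclei at a mean of 517 CPM (log2 ratio 2.70 ± 0.19). Cdh2, which encodes N-cadherin, had 356 to 773 CPM (3.07 ± 0.619). Ngfr, the p75 neurotrophin receptor, had 5, 1, 4, 3 and 2 UMIs, and Gfap had 0, 0, 1, 2 and 0.

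Adhesion between axon and glia was represented by 6 of 13 listed genes, Nlgn1, Nlgn3, Cadm1, L1cam, Ncam1 and Ncam2 (list median 2.44). Cadm1, an adhesion molecule of the immunoglobulin family, had 546, 509, 367, 495 and 411 CPM (3.71 ± 0.314). Cntn1, Nfasc and Gldn, which build the node of Ranvier and its flanks in myelinated fibres, had no UMI in any member. In each library this allows up to 18.1 to 44.2 CPM per gene (3 counts).

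On the neuregulin pathway, the receptor Erbb3 was found and the ligand Nrg1 was not. Beside Erbb3, Adgrg6 was higher in every library, at 354, 529, 205, 344 and 317 CPM (log2 ratio 3.78 ± 0.41). Adgrg6 is an adhesion G protein-coupled receptor needed for Schwann cell sorting of axons. Erbb2, the partner of ErbB3, had 12 UMIs in all, or 10.8 to 39.2 CPM, against a mean of 10.1 CPM elsewhere. Nrg1, the ligand, had 0 UMIs in members against a mean of 49.0 CPM in the other gate nuclei, at least 1.54-fold lower by the mean of the libraries' limits. Of 8 listed genes, 2 were at least 2-fold higher in every library.

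Genes of the basal lamina and its receptors were higher in 4 of 16, Itgb4, Dmd, Utrn and Col28a1, and lower in 1, Lamc1. Itgb4, the integrin beta subunit that pairs with alpha 6 on the outer Schwann membrane, had 118, 225, 97.1, 121 and 200 CPM (log2 ratio 3.04 ± 0.468). Utrn, which encodes utrophin, had 2994, 2750, 1618, 2983 and 3358 CPM (2.26 ± 0.385). Col28a1, a collagen chain of peripheral nerve, had 43.1 to 188 CPM against a mean of 3.61 elsewhere (2.85 ± 0.593). Laminin genes were not higher. Lama2, the alpha chain of the Schwann cell lamina, had 755 to 1475 CPM in members and a mean of 2008 in the other gate nuclei, of which many are fibroblasts (log2 ratio -0.92 ± 0.294).

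Of 12 neurotrophic genes, Gfra2 and Gfra3 were higher. Ntf3 had 0, 0, 0, 1 and 0 UMIs, and its mean of 40.1 CPM in the other gate nuclei was near the limits of 3 counts, so no fold is given. Gfra2, the co-receptor for neurturin, had 354, 343, 237, 278 and 329 CPM (log2 ratio 4.05 ± 0.399). Ret, the signalling receptor that both co-receptors use, had 0, 0, 3, 3 and 0 UMIs. Gdnf and Artn had none.

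Of 13 transcription factors, Sox10, Sox6, Zeb2, Foxd3 and Tfap2a were higher and Sox5 lower. Zeb2, a repressor needed for Schwann cell differentiation, had 2419, 3592, 1985, 2102 and 1843 CPM (log2 ratio 1.53 ± 0.281). Sox6 had 840 to 1263 CPM (2.60 ± 0.126), while Sox5 had 236 to 411 CPM against a mean of 1320 (-1.93 ± 0.457). None of 9 injury-response genes was at least 2-fold higher in every library. Shh, Olig1 and Gdnf had no UMI, and Jun, a driver of the repair state, had 2, 3, 8, 12 and 4 UMIs. None of 11 immediate early genes, 13 glucocorticoid-responsive genes and 15 clock genes was higher in every library. Over all 10803 genes considered the share was 2.59%, so lists of these sizes with none, the injury-response list included, lie near this background. Npas2, a clock gene, had 0 UMIs in members, but its mean of 12.6 CPM elsewhere was below the limit that 0 counts allow.

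Among 10 channels and receptors, 6 were higher, namely Kcna2, Kcna6, Scn7a, Grik2, Grik3 and P2rx7. Grik3, a kainate receptor subunit, had 192, 225, 162, 320.1 and 282 CPM against a mean of 1.07 (log2 ratio 4.43 ± 0.37). P2rx7, an ATP-gated channel, had 183 to 260 CPM (2.06 ± 0.244). Kcnj10, a potassium channel of satellite and central glia, had 1, 1, 1, 1 and 7 UMIs.

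Several markers that define neurons, melanocytes and adipocytes were at 0. Of 10 neuronal markers, Syt1, Th, Dbh and Chat had no UMI in any member, and the other 6 had some. The list summed to 44.2, 19.6, 86.3, 18.1 and 0 CPM in members. In the other gate nuclei it summed to 4.88, 5.59, 7.03, 8.73 and 14.3 CPM, below the members in every library except Tg male 2. Of 6 melanocyte markers, Tyr, Mlana and Tyrp1 had none (list sum 44.2 to 194 CPM in members and 164 to 191 in the other gate nuclei), and the 3 adipocyte markers had none. The 6 fibroblast markers summed to 3068, 2173, 2265, 1721 and 1303 CPM in members and to 4918 to 7565 CPM in the other gate nuclei, and Dcn and Pdgfra were at least 2-fold lower in every library. The 5 cardiomyocyte markers summed to 841, 636, 1791, 755 and 1573 CPM in members and to 880 to 1340 CPM in the others, highest in the libraries labelled Tg female 2 and Tg male 2. Endothelial markers summed to 35.2 to 496 CPM, pericyte markers to 11.7 to 75.5, smooth muscle markers to 6.04 to 32.4, macrophage markers to 14.8 to 173, endocardial markers to 0 to 58.7 and lymphocyte markers to 0 to 14.8. The 4 mesothelial markers summed to 0 CPM in the 3 libraries labelled female and to 36.2 and 235 CPM in those labelled male. These male sums came mostly from 1 nucleus in each library. It held 6 UMIs in Tg male 1, where it was a called doublet, and 19 in Tg male 2, where it had 3 rule genes. Both nuclei lay outside the cluster that held most members. The lymphatic list was the exception through 1 gene. Reln, which encodes the secreted protein reelin, had 147, 744, 183, 682 and 493 CPM (log2 ratio 2.46 ± 0.839), while Mmrn1, Prox1 and Flt4 were low.

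**Figure D3:**
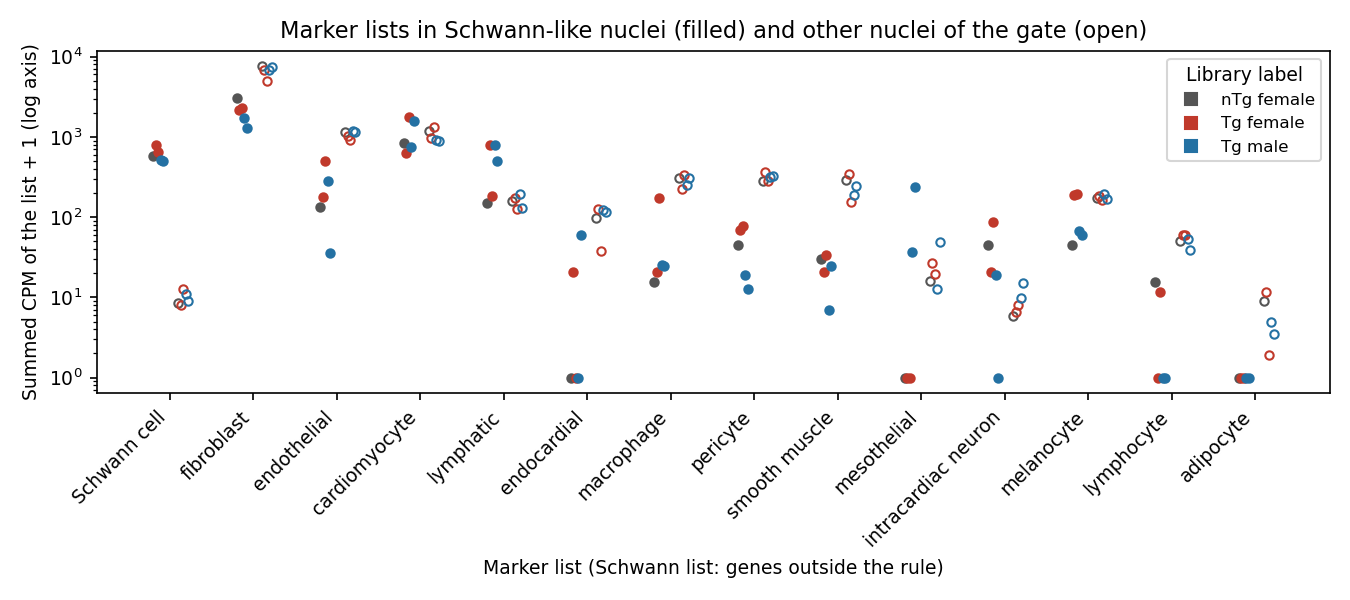
Summed CPM + 1 (log axis) of each marker list, 1 point per library, in Schwann-like nuclei (filled) and in the other nuclei of the gate (open), coloured by label. The Schwann list, without rule genes, stands at 504.8 to 783 CPM in members, and fibroblast markers reach 1303 to 3068 CPM. Mesothelial markers are at 0 in members of the 3 libraries labelled female. In each library labelled male they came mostly from 1 nucleus.

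Called doublets made up 13 of 189 members (6.88%) and 8.20% of all nuclei that passed quality filters. No barcode of a member was a barcode of a passing nucleus in another library. Another 72 nuclei met the rule for the 8 genes but did not pass the gate. Of the 45 among them with 6 or more rule genes, 25 were called doublets, and their median depth was 6176 UMIs.

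The Schwann-like share varied about 2-fold between libraries. It was 0.336% (21 nuclei), 0.483% (47), 0.529% (37), 0.693% (55) and 0.423% (29), with exact 95% intervals that overlap except that of nTg female 1, 0.208% to 0.513%, with that of Tg male 1, 0.522% to 0.901%. The 2 libraries labelled Tg male were the highest and the lowest of the 4 labelled Tg. The mean was 0.506% ± 0.032 (SD, n = 2) in Tg female and 0.558% ± 0.191 (SD, n = 2) in Tg male. The difference, female minus male, was -0.052 percentage points, smaller than the spread in males (two-sided exact permutation test, p = 1.0, where 2 against 2 cannot go below 0.33). With the library labelled nTg female 1 added to the females it was -0.108 points (exact permutation p = 0.5, smallest possible 0.1). Without Tg male 1 the sign turned, to 0.083 points, and without Tg female 1, whose Ccna2 went against its label, the difference was -0.029 points. With few nuclei per library a difference in share of this size was not detectable.

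**Figure D4:**
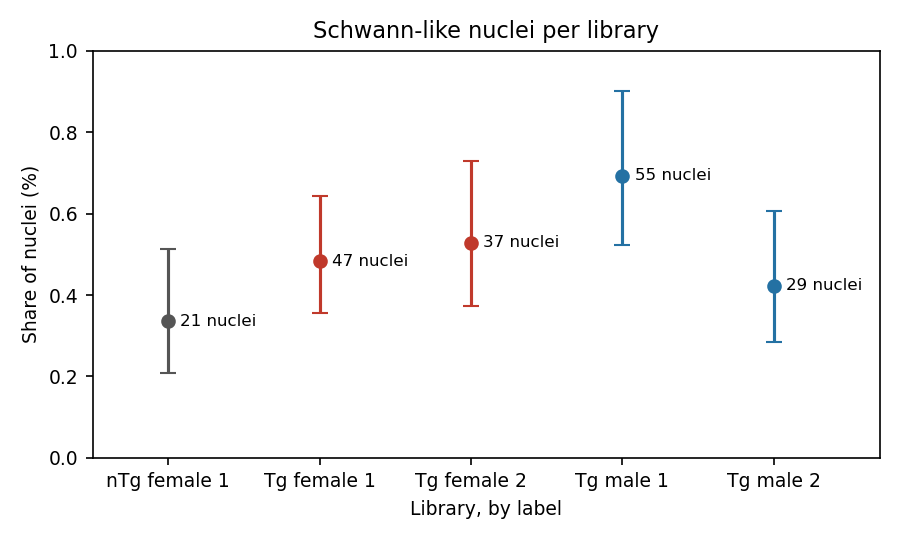
Share of Schwann-like nuclei among nuclei passing quality filters (%, vertical axis) for each library (horizontal axis), with exact 95% binomial intervals and the number of nuclei beside each point. The shares run from 0.336% to 0.693%, and the 2 libraries labelled Tg male span those labelled Tg female.

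Beside sex-linked genes, F3, Zc3h12c, Arhgap24, Fkbp5 and Zbtb16 were lower in the Schwann-like nuclei of both libraries labelled Tg female than in those of both labelled Tg male. Of the 3100 genes tested, 16.4% had this order of the 4 libraries. In Fkbp5 and Zbtb16 the library labelled nTg female 1 stood with the males. The calls of F3, Zc3h12c, Arhgap24, Fkbp5 and Zbtb16 depended on single libraries. All but that of Arhgap24 also depended on the labelled genotype as a covariate. Expression by sex was compared on UMIs summed over members per library, in the 5 libraries with the labelled genotype as a covariate. With 1 library of nTg label, that library fixes the genotype term and the estimates rest on the 4 labelled Tg. Ccna2 went against the genotype label of that library, nTg female 1, and also against the label carried by Tg female 1. Were both labels wrong, the covariate would set aside the wrong library, and the pair labelled Tg female would mix genotypes. An exchange of these labels was not tested. The fold changes are female minus male on the log2 scale. The study's title names sex differences as its question. Of 3100 genes tested with edgeR's quasi-likelihood test, 24 passed at a Benjamini-Hochberg adjusted p under 0.05 (0.774%). Of these 6 were higher (0.194%) and 18 lower (0.581%) in females, and 171 had an unadjusted p under 0.05. The fit left 2 residual degrees of freedom, so each gene's spread was drawn in part from a spread pooled over genes. A gene with a wide spread between libraries could still pass, such as Pcdh15 with 6.04 and 411 CPM in Tg male. The expression filter needed its level in only 1 library, the size of the smallest group. In the 4 libraries labelled Tg alone 2198 genes were tested. Rbfox1, Pcdh15, Kcnd2, Ptprd, Dach1 and Muc16, among the 24, were not tested there. This is the same fit as leaving out nTg female 1. The log2 difference of F3 was -2.18 there and -2.21 with all 5 libraries, while the genes tested and the pooled spread changed. The count of 24 changed with each library left out. It was 5 without nTg female 1, 8 without Tg female 1, 0 without Tg female 2 (with 112 unadjusted), 19 without Tg male 1 and 8 without Tg male 2. DESeq2 called 4, among them Xist, Tsix and Wdr17. Without the genotype covariate edgeR called 18, with Arhgap24 among them (adjusted p = 0.00605). F3, Zc3h12c, Fkbp5 and Zbtb16 were not (edgeR adjusted p = 0.0576, 0.118, 0.575 and 0.477).

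The sex-linked genes checked the labels of sex. Xist, the noncoding RNA of the inactive X chromosome, had 77, 150 and 120 UMIs in female members and 0 in males, at least 51.8-fold higher in Tg female than in Tg male members by the mean of the limits of 3 counts per library. Tsix, its antisense partner, had 92, 91, 103, 0 and 1 UMIs, and how far the counting told the 2 apart by strand is not known. The Y-linked Uty had 0 UMIs in females and 29 and 9 in males, at least 4.55-fold higher in males. All 3 passed the test (adjusted p = 6.03e-15, 5.35e-13 and 0.0399 in edgeR). Ddx3y, Eif2s3y and Kdm5d had 0 UMIs in the female libraries and were too low to be tested. Kdm6a and Kdm5c, X-linked genes that escape inactivation, did not pass.

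Many of the remaining calls came from few nuclei. Of the 24 genes, 10 had at least 50% of their UMIs in the 12 members outside the cluster of 177, namely Wdr17, Gpm6a, Rbfox1, Pcdh15, Erbb4, Kcnd2, Ptprd, Dach1, Muc16 and Plxna4. Wdr17 had 3, 0, 0, 51 and 92 UMIs, of which all 92 in Tg male 2 lay in 1 nucleus (edgeR adjusted p = 1.51e-11). It was at least 22.5-fold lower in Tg female than in Tg male members by the mean of the limits of 3 counts per library. A test of the sex difference in members against that in the other gate nuclei of the same libraries, added after the values had been seen, was passed by 2 of 3100 genes (156 at an unadjusted p under 0.05), and Wdr17 was among them. Pcdh15 had 35 of its 37 UMIs in 1 nucleus, Gpm6a 39 of 57 and Muc16 25 of 34. The mesothelial markers also stood high in the male libraries, mostly through 1 nucleus in each as given above. Their part in these results was not tested. Dach1, higher in females, had 0, 4, 32, 2 and 0 UMIs, of which 71.1% lay outside the cluster.

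In the 177 nuclei of the cluster alone, a choice made after these values had been seen, 12 of 2111 genes passed, and 9 of them were among the 24. Among these were Xist, Tsix, F3, Zc3h12c, Arhgap24, Zbtb16, AC171003.1 and Sgcz, and they are named here for having passed both. The last 6 were lower in females by the fitted difference. Sgcz had 177, 0, 302, 888 and 270 CPM in members, with Tg female 2 above Tg male 2. Of its 210 UMIs, 147 lay in Tg male 1. AC171003.1 had 501, 108, 216, 411 and 716 CPM, with nTg female 1 above Tg male 1. F3, the gene of tissue factor, had 221, 78.3, 75.5, 248 and 481 CPM in members (log2 difference -2.21, SE 0.505, edgeR adjusted p = 0.00925). A UMI of F3 was found in 7 of 21, 7 of 47 and 7 of 37 female members and in 18 of 55 and 13 of 29 male ones. The other nuclei of the gate had 18.8 to 30.6 CPM, and the sex difference in members did not pass the test of difference from that in these nuclei (log2 -2.49, SE 0.666, edgeR adjusted p = 0.331). With 1 library left out, the adjusted p of F3 was 0.00426 without Tg male 1 and 0.0541 to 0.805 without any other. Zc3h12c, a zinc finger gene of RNA decay, had 266, 117, 86.3, 356 and 446 CPM (-1.96, SE 0.474, adjusted p = 0.0166). Arhgap24, a GTPase-activating protein, had 177, 176, 97.1, 399 and 634 CPM (-1.89, SE 0.461, adjusted p = 0.0166). In the other nuclei of the gate Arhgap24 had 564, 547, 260.0, 1097 and 1352 CPM, likewise lower in the 3 female libraries, and the difference between the sex differences was -0.27 (SE 0.424, edgeR adjusted p = 0.981). Zc3h12c had 40.2 to 53.6 CPM there, and its difference between the sex differences did not pass either (-1.82, SE 0.489, edgeR adjusted p = 0.331). In F3 and Zc3h12c the library labelled nTg female 1 lay nearer to the males, and none of these 3 passed in the 4 libraries labelled Tg alone (adjusted p = 0.0541, 0.0688 and 0.106) or with DESeq2 (0.999 each). Lum, a fibroblast proteoglycan, was higher in females, with 236, 127, 173, 12.1 and 11.7 CPM (3.51, SE 0.748, adjusted p = 0.00376), and did not pass in the cluster (0.287). The fibroblast marker sum, which includes Lum, was likewise higher in the members of the 3 female libraries, 2173 to 3068 CPM, than in those of the males, 1303 and 1721, and its part in this result was not tested.

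Of 13 glucocorticoid-responsive genes, 10 were tested, and Fkbp5 and Zbtb16 passed, both lower in females. Fkbp5, a co-chaperone of steroid receptors, had 442, 97.9, 140.2, 507 and 364 CPM (log2 difference -1.89, SE 0.466, edgeR adjusted p = 0.0194). Zbtb16, a transcription factor, had 841, 78.3, 442, 936 and 904 CPM (-1.84, SE 0.472, adjusted p = 0.0303). In both the library labelled nTg female 1 stood with the males, not with the other females. Of the 10 tested genes, 7 had both Tg female libraries below both Tg male ones, as did 16.4% of all 3100 genes tested, and the list's median log2 difference was -1.12, against 0.001 over all genes tested. The 13 genes summed to 3097, 871, 1467, 2808 and 3017 CPM.

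In the other nuclei of the gate, too, both libraries labelled Tg female were below the other 3. Fkbp5 had 698, 214, 279.7, 715 and 746 CPM there and Zbtb16 had 1966, 481, 813, 2023 and 1735 CPM. The sex difference in members did not pass a test of difference from that in the other nuclei (edgeR adjusted p = 0.97 for Fkbp5 and 0.966 for Zbtb16). Neither gene passed in the 4 libraries labelled Tg alone (adjusted p = 0.0981 and 0.274), with any 1 library left out (adjusted p from 0.0981 to 0.805 for the 2 genes) or with DESeq2 (0.999 for both). Taking the 4 libraries labelled Tg alone and leaving out nTg female 1 are the same fit. With the library labelled nTg female 1 at the level of the males, these 2 genes did not follow the label of sex in all 5 libraries.

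**Figure D5:**
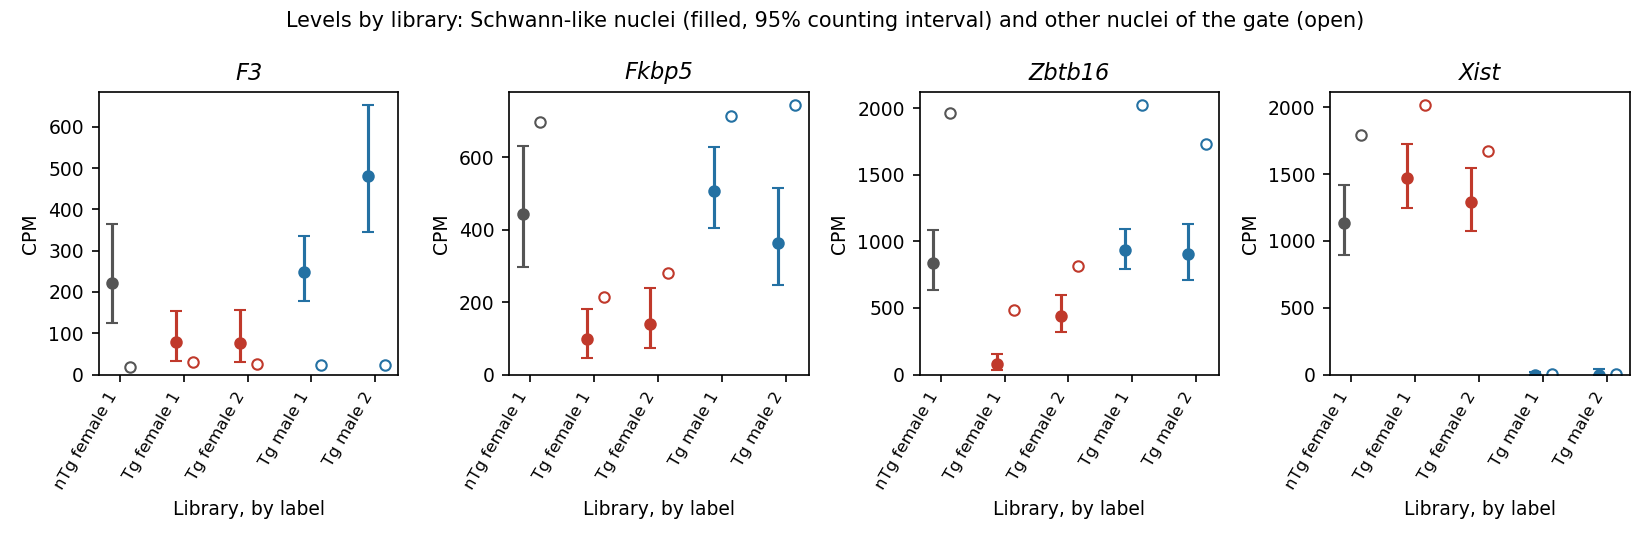
CPM (vertical axes, linear) of F3, Fkbp5, Zbtb16 and Xist in each library, in Schwann-like nuclei (filled, with exact Poisson 95% intervals for counting error) and in the other nuclei of the gate (open), coloured by label. F3 stands at 78.3 and 75.5 CPM in the Schwann-like nuclei of both libraries labelled Tg female and at 248 and 481 CPM in those labelled Tg male, while Fkbp5 and Zbtb16 are low in both kinds of nuclei of these 2 libraries.

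By sex, the listed genes had these counts. None of the 20 leading genes passed in edgeR (4 had an unadjusted p under 0.05), and their median log2 difference was -0.17. No tested gene of the identity (9), myelin (5), non-myelinating (4), axon and glia adhesion (8), basal lamina (13), neurotrophic (4), transcription factor (6), channel (7) or clock (9) lists passed. At unadjusted p under 0.05 these lists had 1, 0, 0, 0, 1, 0, 1, 0 and 3 genes. Over all 3100 genes tested 24 passed (0.774%) and 171 had an unadjusted p under 0.05, so lists of 4 to 13 genes with no call lie near this background. No injury-response or immediate early gene was high enough to be tested. Among the neuregulin genes Erbb4 passed, with 1, 0, 4, 38 and 14 UMIs, but all 38 in Tg male 1 lay in 1 nucleus, and only 1 of its 57 UMIs lay in the cluster of 177.

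The library labelled nTg female 1 was set beside the 4 labelled Tg with no test, since it is 1 library of 21 nuclei and 67805 UMIs. Of 2565 genes with at least 100 CPM on either side, 224 were at least 2-fold higher than the mean of the others and outside their range (8.73%), and 146 lower (5.69%). Without Tg female 1 there were 233 and 186 of 2606, of which 200 and 126 were shared. The highest ratios were in Ccbe1, Tmem45a, Sntg1, Gabra3 and Slc44a5. Ccbe1, a secreted factor of lymphatic growth, had 16 UMIs in nTg female 1, or 236 CPM (exact Poisson interval 135 to 383), against 9.79, 21.6, 6.04 and 58.7 CPM. Gabra3, a subunit of the GABA receptor, had 10 UMIs there, or 147 CPM (70.7 to 271), against 39.2, 0, 24.2 and 0 CPM.

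The lowest ratios were in Cacna1c, 1700084C06Rik, Tra2b, Rbm20 and Meis2. Cacna1c, a calcium channel of cardiac muscle, had 0 UMIs in nTg female 1 and 58.7, 442, 72.5 and 517 CPM in the others. This is at least 6.16-fold below the mean of the others (272 CPM), while Tg female 1 and Tg male 1 lay near the 44.2 CPM that 0 counts allow. Rbm20, a splicing factor of cardiac muscle, had 0 UMIs against 9.79, 205, 6.04 and 211 CPM, at least 2.44-fold below their mean of 108 CPM. Tg female 1 and Tg male 1, with 1 UMI each, lay under the 44.2 CPM that 0 counts allow. From these 2 libraries nTg female 1 cannot be told apart. Both were high in Tg female 2 and Tg male 2, the libraries where cardiomyocyte markers were highest in the members, and the part of these markers in the result was not tested. Tra2b, a splicing factor of many tissues, had 0 UMIs against 88.1, 140.2, 96.6 and 141 CPM, at least 2.63-fold below their mean. No direction by genotype is drawn from these values, since Ccna2 went against the label of this library.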

How the data were processed

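The deposited matrices hold raw UMI counts per gene and barcode as whole numbers. Per the file headers these counts come from Cell Ranger 7.0.0, and the build is mm10 per the submitters' processing notes. The annotation used and whether introns were counted are not given in the sources used here. Gene coordinates come from the GENCODE annotation of GRCm38.

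A library was kept where the number of matrix columns equalled that of its barcodes, and 3 of 8 were not used. Doublets were called per library with scrublet in scanpy 1.11.5 (expected rate 6%). In the library labelled Tg female 2 under 0.5% were called, so its top 5% of scores were taken. Doublets were kept among the members, and leaving them out was an alternative. Nuclei of the gate were scaled within library and clustered by Leiden (2000 variable genes, 30 components, 15 neighbours, resolution 1). Members' counts were summed per library and tested with edgeR 4.0.16 (quasi-likelihood, TMM, filterByExpr, Benjamini-Hochberg, threshold 0.05), a procedure tested on simulated data. DESeq2 1.42.0, other scalings and filters, other member sets, a replicate block and leaving out each library were alternatives. Shares were compared with exact permutation tests (scipy 1.17.1).

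The rule for named genes took the 20 highest mean log2 ratios, members over other gate nuclei, among genes at 100 CPM or more and at least 2-fold higher in all 5 libraries. For sex it took the 5 highest and 5 lowest called genes and the sex-linked genes, for nTg female 1 the 5 highest and 5 lowest ratios, and all genes of the lists. Some genes are not reported here and were left out of the lists, while counts over all genes include them. Other named genes were chosen after their values were seen. The members and the gene lists were chosen with earlier results of these data known. The members had 67805, 102174, 92697, 165580 and 85177 UMIs per library, so a gene with 0 counts allows up to 44.2, 29.4, 32.4, 18.1 and 35.2 CPM (3 counts).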

Additional observations from a re-analysis of the deposited data

Results flagged for a closer look

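For Wdr17 the sex difference in the Schwann-like nuclei differed from that in the other nuclei of the gate by a test of the difference itself (edgeR quasi-likelihood test over 3100 genes, adjusted p = 0.00404). The Schwann-like nuclei had 3, 0, 0, 51 and 92 UMIs, and the other nuclei 356, 617, 449, 569 and 758 CPM. Since both libraries labelled Tg female were at 0 UMIs in the Schwann-like nuclei, the fitted size of the difference is not given. Of the 146 UMIs, 92 lay in 1 nucleus of the library labelled Tg male 2, and 84.9% lay outside the cluster of 177 nuclei.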

How the results depend on the processing

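The difference in share between Tg female and Tg male ranged from -0.187 to 0.083 percentage points when each library was left out, with the positive value without Tg male 1. The count of 24 genes called by sex was 5 of 2198 tested in the 4 libraries labelled Tg alone, which is the fit without nTg female 1. It was 4 with DESeq2, and 8 for genes reaching 5 UMIs in each library. It was 11 in members with at least 4 rule genes. With member sets added after seeing the data, it was 12 in the cluster of 177 nuclei and 4 with the 45 nuclei that failed the gate. Leaving out each library gave 0 to 19. With the replicate number as a block it was 21 (all 21 among the 24). Deviations of Tg female 1 and Tg male 1 had r = -0.01 over 3111 genes. With so few UMIs per gene this cannot decide whether equal numbers share a batch. The main test used no pairing by number. No genotype covariate gave 18, RLE scaling 29, no filter 31 and leaving out called doublets 20. The log2 difference of Plxna4 turned from -1.74 to 0.88 in the cluster of 177 nuclei. Where a call was lost, the cause was not tested. Of the counts of list genes that were higher in every library, 257 kept their value within 1.5 times and 4 moved. Many of those that kept their value were 0 in every setting. The 4 that moved went from 0 to 1, in the injury-response and glucocorticoid-responsive lists. With 21 to 55 nuclei per library, genes under the limit of 3 counts cannot be told from absent ones.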
